A study of Mus musculus with 17 samples.

Results

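The growth hormone to STAT5 axis was followed in sorted mouse hepatocytes through 10 genes chosen by name from the pathway: Ghr, Prlr, Jak2, Stat5b, Socs2, Cish, Bcl6, Cux2, Igf1 and Igfals. All 10 were found by Ensembl identifier in a table of 23461 genes, and all 10 were among the 13721 genes with enough counts to be tested. The hepatocytes, isolated by FACS for RNA sequencing, were of male mice 2 to 3 months old. The groups were Yap/Taz knockout given CCl4 (n = 3), Yap/Taz knockout left untreated (n = 4), wild type given CCl4 (n = 5) and wild type left untreated (n = 5), 17 libraries in all. YAP and TAZ are transcriptional coactivators held in check by the Hippo kinases, and CCl4 (carbon tetrachloride) is a solvent that injures the liver. CCl4 was dosed at 1 ug/g on 7 occasions spaced 3 days apart, with collection 3 days after the last. Nothing in the sources used here gives the alleles, the driver of the deletion or the strain. The labels do not state that each library came from its own animal, so p-values measure the spread between these libraries, which may be technical.

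Growth hormone from the pituitary binds its receptor on hepatocytes, the receptor-bound kinase JAK2 phosphorylates STAT5B, and STAT5B then enters the nucleus to drive genes such as Igf1 and Igfals. The same signal switches on its own brakes, the SOCS-family inhibitors encoded by Socs2 and Cish, and lowers the repressor Bcl6. In male rodents the hormone is released in pulses and in females more evenly, and this pattern sets the sex-biased genes of the liver; Cux2 encodes a repressor enriched in female liver. The prolactin receptor, encoded by Prlr, also signals through JAK2 and STAT5.

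STAT5 dimers bind the palindrome TTCNNNGAA, where N is any base, and promoters of 3 members that carry it are shown because they belong to a feedback brake, a repressor and a target of the pathway. The windows run from 250 bases before the annotated start to 30 after it, 5′ to 3′ along the gene, from RefSeq on GRCm38.p6, with each match in capitals. Cish is at chr9:107296409-107296688 on the plus strand, Bcl6 is at an internal start at chr16:23981254-23981533 on the minus strand, and Igfals is at chr17:24877981-24878260 on the plus strand.
Cish: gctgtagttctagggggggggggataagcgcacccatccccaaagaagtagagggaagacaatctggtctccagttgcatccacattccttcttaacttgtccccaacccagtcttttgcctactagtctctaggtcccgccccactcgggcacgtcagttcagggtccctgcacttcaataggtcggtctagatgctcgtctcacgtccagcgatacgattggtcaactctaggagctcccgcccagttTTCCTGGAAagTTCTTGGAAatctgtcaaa
Bcl6: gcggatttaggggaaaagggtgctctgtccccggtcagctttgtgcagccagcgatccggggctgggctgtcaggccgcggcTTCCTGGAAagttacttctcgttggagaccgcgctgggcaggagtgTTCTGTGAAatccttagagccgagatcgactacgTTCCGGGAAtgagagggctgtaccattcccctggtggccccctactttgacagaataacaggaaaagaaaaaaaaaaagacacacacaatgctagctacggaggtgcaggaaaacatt
Igfals: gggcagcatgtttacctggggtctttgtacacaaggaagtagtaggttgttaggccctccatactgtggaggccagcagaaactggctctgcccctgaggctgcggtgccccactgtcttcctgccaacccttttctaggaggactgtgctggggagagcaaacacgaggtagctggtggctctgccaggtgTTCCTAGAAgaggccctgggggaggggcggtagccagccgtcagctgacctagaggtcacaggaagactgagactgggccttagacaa
The Cish window held TTCCTGGAA from base 1 and TTCTTGGAA from base 12, counting the first transcribed base as 1. The Bcl6 window held 3 matches, TTCCTGGAA, TTCTGTGAA and TTCCGGGAA, starting 168, 122 and 88 bases before the first transcribed base. The Igfals window held TTCCTAGAA starting 58 bases before it. Each window shown for Bcl6 and Igfals is 1 of several: the outer Bcl6 start had a single match, TTCTCAGAA, 118 bases before it, another Igfals start had TTCTCAGAA 236 bases before it, and the last Igfals window had none. Promoter windows were found for 9 members (17 windows of 300 bases), and 4 of these members had a match, the fourth being Prlr. The motif, which reads the same on both strands, was in 8.30% of 32851 promoter windows of the same length and in 9.55% of 27025 genes. At least 2 matches were in 0.457% of windows and at least 3 in 0.0335%. These are letter matches in a reference genome; occupancy by STAT5 was not measured.

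Levels below are CPM, which are counts scaled to a common library size, here after TMM scaling, and changes are log2 fold changes ± standard error from edgeR's quasi-likelihood test with p adjusted by Benjamini-Hochberg over the 13721 genes; a gene passed at an adjusted p under 0.05. Per kilobase of exon, Igf1, Ghr and Igfals were the most abundant members in wild type untreated hepatocytes, with 56.4 ± 11.3, 47.3 ± 5.71 and 40.3 ± 6.24 CPM per kb (SD, n = 5). Stat5b followed with 10.3 ± 3.61 CPM per kb, and no library of it reached any library of those 3 genes. Bcl6, Prlr, Cish and Jak2 averaged 5.47, 2.88, 2.65 and 2.24 CPM per kb, and from Stat5b down to Jak2 the ranges of neighbours overlapped. Socs2 averaged 0.683 CPM per kb and lay below Jak2 in each of these 5 libraries. Cux2 averaged 0.188 CPM per kb and overlapped Socs2 in range, and over all 17 libraries it was represented by 1 to 91 reads.

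In Yap/Taz knockout hepatocytes CCl4 was followed by lower transcripts for the growth hormone receptor and both parts of its circulating output, Igf1 and Igfals, while the kinase and the STAT did not pass the test in either direction. In total 3 of the 10 members passed, all 3 lower, where 19.0% of all tested genes passed in either direction and 6.96% passed as lower. The count was 1, Igfals, with libraries scaled by their totals alone (Ghr -1.03 log2, edgeR adjusted p = 0.0588; Igf1 -0.69 log2, adjusted p = 0.0513), and Ghr missed the threshold in a fit of only the 2 groups compared (-1.26 log2, adjusted p = 0.0808). In wild type the same CCl4 course left 0 of 10 past the threshold, where 0.853% of all genes passed. Igf1 and Igfals were also lower on average in wild type after CCl4, at an unadjusted p under 0.05 for these 2 members, and DESeq2 and limma voom likewise passed 0 members. Since hepatocytes were measured in bulk, fewer cells carrying a transcript and less of it per cell cannot be told apart.

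**Figure D1:**
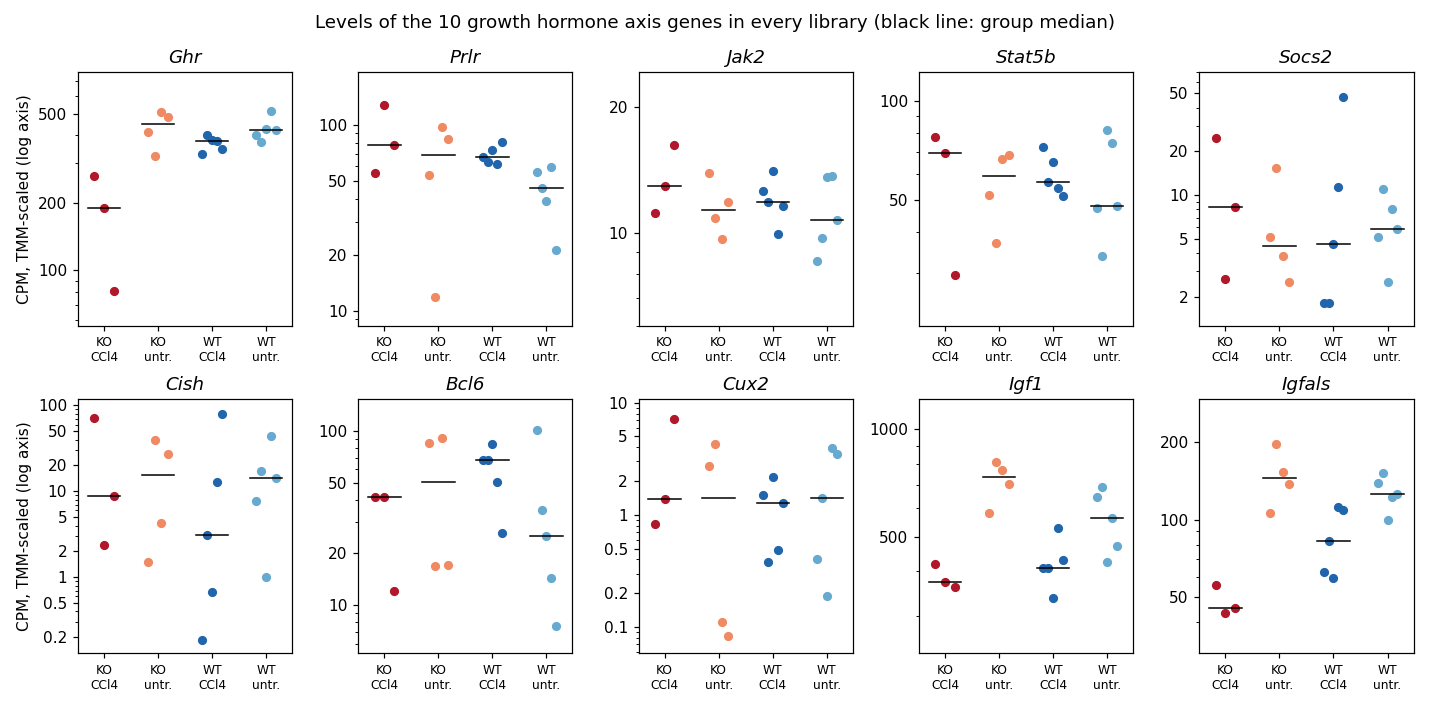
Level of each axis gene (CPM of TMM-scaled libraries, log axis) in every library, with the 4 groups side by side and a black line at each group's median. Igf1 and Igfals in the 3 knockout CCl4 libraries lie below all 4 knockout untreated libraries, whereas Cish and Socs2 scatter widely within every group.

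Receptors. Ghr (ENSMUSG00000055737, mm10 chr15:3317760-3583492) had 263.4, 189.0 and 80.8 CPM in knockout CCl4 libraries, against 415.9, 325.4, 510.0 and 481.4 CPM in knockout untreated libraries. In wild type it had 331.8, 399.7, 381.1, 377.5 and 346.8 CPM after CCl4, against 400.8, 375.0, 429.0, 512.4 and 423.9 CPM untreated. The 3 knockout CCl4 libraries were the lowest 3 of all 17, and the wild type groups overlapped. A separation of knockout CCl4 below knockout untreated libraries occurred in 10.8% of all tested genes. The knockout CCl4 change was -1.28 ± 0.28 log2 (95% interval -1.88 to -0.69, edgeR adjusted p = 0.00437), and the wild type change was -0.22 ± 0.22 log2 (adjusted p = 0.705). After CCl4, Ghr was lower in knockout than in wild type, with a log2 fold change of -1.05 ± 0.27 (edgeR adjusted p = 0.0190).

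Replicate 3 of the knockout CCl4 group held the lowest Ghr value, and it stood apart from its group in other measures. Its mitochondrially encoded share was 34.3% of counts, against 7.49% and 4.25% in replicates 1 and 2. Wild type untreated replicates 5 and 2 also had high shares, 30.7% and 20.1%. The 10 macrophage markers summed to 3601 CPM in knockout CCl4 replicate 3, against 120 and 264 CPM in replicates 1 and 2. Without replicate 3 the knockout CCl4 change of Ghr was -0.94 log2 (edgeR adjusted p = 0.00717). The difference between genotypes after CCl4 was then -0.70 log2 and no longer passed (edgeR adjusted p = 0.0610).

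Prlr (ENSMUSG00000005268, chr15:10177238-10349180) did not pass in any comparison, and its knockout groups overlapped. It had 54.7, 128.0 and 78.0 CPM in knockout CCl4 libraries, against 53.5, 11.9, 96.6 and 83.8 CPM in knockout untreated ones. The wild type libraries had 66.8, 63.0, 72.9, 61.2 and 80.8 CPM after CCl4, against 55.4, 45.5, 39.0, 59.5 and 21.2 CPM untreated. All 5 wild type CCl4 libraries were above all 5 untreated ones, a separation seen upward in 3.15% of all genes, yet the change of 0.64 ± 0.40 log2 did not pass (edgeR adjusted p = 0.488). The gene overlaps the predicted gene Gm21973 on the same strand, so reads of the pair may be mixed.

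Kinase and STAT. Jak2 (ENSMUSG00000024789, chr19:29251828-29313080), which couples the receptor to STAT5, had 11.2, 12.9 and 16.2 CPM in knockout CCl4 libraries, against 13.9, 10.9, 9.67 and 11.9 CPM in knockout untreated ones. Wild type values were 12.6, 11.8, 14.1, 9.95 and 11.6 CPM after CCl4, against 8.57, 9.76, 13.6, 13.7 and 10.8 CPM untreated. The groups overlapped in both genotypes. The 95% interval of the knockout CCl4 change was -0.21 to 0.64 log2 and that of the wild type change -0.27 to 0.44 log2, so a fall of the size of Ghr's in knockout, -1.28 log2, lay outside both intervals.

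Stat5b (ENSMUSG00000020919, chr11:100780731-100850724), the main STAT5 of male liver, had 77.5, 69.5 and 29.8 CPM in knockout CCl4 libraries, against 51.6, 37.1, 66.6 and 68.3 CPM in knockout untreated ones. In wild type it had 72.3, 56.5, 65.4, 54.4 and 51.3 CPM after CCl4, against 47.5, 33.9, 81.4, 74.2 and 48.1 CPM untreated. Both pairs of groups overlapped, and the lowest knockout CCl4 value was again replicate 3. The knockout CCl4 change was 0.08 log2 with a 95% interval of -0.61 to 0.76, and the wild type change was 0.07 log2 with an interval of -0.49 to 0.64. Without replicate 3 the knockout change was 0.40 log2. Stat5a lies close by and is similar in sequence, so reads may be split between the pair. The amount of STAT5 protein and its phosphorylation were not measured.

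Feedback inhibitors. Socs2 (ENSMUSG00000020027, chr10:95385362-95417180) encodes an adaptor that limits signalling from the receptor. It had 24.6, 2.65 and 8.35 CPM in knockout CCl4 libraries, against 5.14, 15.4, 3.79 and 2.51 CPM in knockout untreated ones. Wild type hepatocytes had 1.81, 1.83, 4.603, 11.4 and 46.9 CPM after CCl4, against 5.14, 11.01, 2.51, 8.03 and 5.85 CPM untreated. High and low libraries occurred in every group, and no comparison passed.

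Cish (ENSMUSG00000032578, chr9:107296026-107302784), a STAT5-induced inhibitor whose promoter is printed above, varied even more. It had 70.9, 2.396 and 8.90 CPM in knockout CCl4 libraries, against 1.49, 39.1, 4.29 and 27.0 CPM in knockout untreated ones. The wild type libraries had 0.187, 3.09, 0.678, 12.7 and 79.0 CPM after CCl4, against 7.76, 17.3, 1.01, 44.7 and 14.4 CPM untreated. Its highest library was 422 times its lowest, and both of these were wild type CCl4 libraries. Its 95% intervals were accordingly wide, -2.58 to 3.82 log2 for CCl4 in knockout and -2.50 to 2.84 log2 for CCl4 in wild type. The antisense gene Gm17041 and the pseudogene Gm17040 overlap Cish, and reads of the 3 may be mixed, since no source used here states the strand setting of the counting.

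Repressors. Bcl6 (ENSMUSG00000022508, chr16:23965052-23988852), a repressor that competes with STAT5 at many of its sites, had 41.6, 41.5 and 12.1 CPM in knockout CCl4 libraries, against 84.8, 16.8, 90.2 and 16.9 CPM in knockout untreated ones. Its wild type values were 67.6, 68.1, 84.0, 51.1 and 26.0 CPM after CCl4, against 101.1, 35.3, 24.7, 14.4 and 7.59 CPM untreated. The groups overlapped in both genotypes, and neither change passed, at -0.72 ± 0.78 log2 in knockout and 0.70 ± 0.64 log2 in wild type (edgeR adjusted p = 0.604 and 0.665). Bcl6 overlaps the gene Gm37419 on the other strand, and reads of the pair may be mixed. Cux2 (ENSMUSG00000042589, chr5:121856366-122050102) stayed low, at 0.837 to 7.17 CPM in knockout CCl4, 0.0838 to 4.28 in knockout untreated, 0.378 to 2.18 in wild type CCl4 and 0.188 to 3.98 in wild type untreated libraries. Its highest value was in knockout CCl4 replicate 3, and no comparison passed.

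Endocrine outputs. Igf1 (ENSMUSG00000020053, chr10:87858265-87937042), the hormone through which much of growth hormone's effect on the body is relayed, had 417.7, 372.6 and 360.9 CPM in knockout CCl4 libraries, against 583.9, 811.3, 768.0 and 702.4 CPM in knockout untreated ones. Wild type hepatocytes had 409.0, 409.2, 336.3, 528.4 and 429.2 CPM after CCl4, against 644.0, 688.9, 424.6, 563.0 and 470.4 CPM untreated. The knockout groups did not overlap, and the wild type groups did. The change was -0.90 ± 0.19 log2 in knockout (edgeR adjusted p = 0.00390) and -0.40 ± 0.16 log2 in wild type (adjusted p = 0.235). After CCl4 the genotypes differed by -0.14 log2, with a 95% interval of -0.52 to 0.25.

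Igfals (ENSMUSG00000046070, chr17:24865997-24882010) encodes the acid-labile subunit that holds IGF1 in its large serum complex. It had 55.5, 43.3 and 45.5 CPM in knockout CCl4 libraries, against 106.1, 196.0, 153.2 and 136.9 CPM in knockout untreated ones. The values in wild type were 62.7, 82.9, 59.4, 111.5 and 109.3 CPM after CCl4, against 138.8, 152.2, 99.2, 122.4 and 126.2 CPM untreated. The 3 knockout CCl4 libraries were below all other libraries of the study, and the wild type groups overlapped. The change was -1.62 ± 0.26 log2 in knockout (edgeR adjusted p = 0.000641) and -0.58 ± 0.20 log2 in wild type (adjusted p = 0.184). Without knockout CCl4 replicate 3 the knockout changes of Igf1 and Igfals were -0.86 and -1.58 log2 and both still passed (edgeR adjusted p = 0.0212 and 0.00403).

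**Figure D2:**
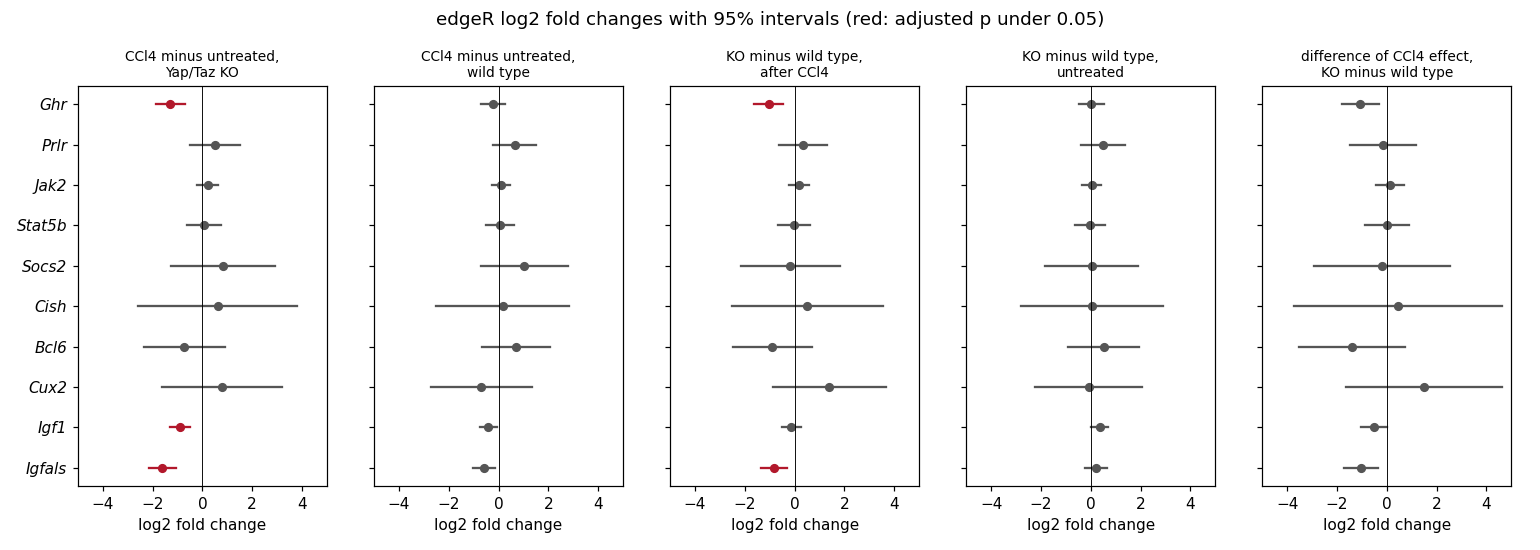
Log2 fold change of each axis gene with its 95% interval in each comparison between groups and in the difference of CCl4 effects, from edgeR, with red points where the adjusted p was under 0.05. Ghr, Igf1 and Igfals are the members past the threshold for CCl4 in knockout, and the intervals of Cish, Socs2, Bcl6 and Cux2 are wide.

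Without injury, loss of Yap and Taz left the axis with 0 of 10 members past the threshold, where 0.933% of all genes passed; 1 member, Igf1, had an unadjusted p under 0.05, and DESeq2 and limma voom passed 0. Igf1 averaged 716 ± 99.0 CPM in knockout untreated (n = 4) and 558 ± 112 CPM in wild type untreated libraries (n = 5), a difference of 0.36 ± 0.17 log2 (edgeR adjusted p = 0.552). Ghr differed by 0.02 log2, with a 95% interval of -0.49 to 0.52. The deletion itself showed in the same libraries: Yap1 averaged 1.37 and 3.50 CPM in knockout CCl4 and knockout untreated libraries, against 55.1 and 51.3 CPM in the wild type CCl4 and untreated groups. Wwtr1, which encodes TAZ, averaged 4.76 and 1.87 CPM in knockout CCl4 and knockout untreated libraries, against 19.6 and 12.8 CPM in the wild type CCl4 and untreated groups. Within knockout, CCl4 changed Wwtr1 by 1.33 ± 0.33 log2, which passed (edgeR adjusted p = 0.00918), and Yap1 by -1.38 ± 0.53 log2, which did not (adjusted p = 0.0855).

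After CCl4, 2 of 10 members differed between genotypes, Ghr and Igfals, both lower in knockout, where 11.8% of all genes passed in either direction and 4.21% as lower. The log2 fold change of Igfals was -0.82 ± 0.24 (edgeR adjusted p = 0.0361), with all 3 knockout CCl4 libraries below all 5 wild type CCl4 libraries. That separation downward occurred in 7.97% of all tested genes. Without knockout CCl4 replicate 3 neither gene passed, with Igfals at -0.79 log2 (edgeR adjusted p = 0.153). Igfals also missed the threshold without knockout CCl4 replicate 2 (adjusted p = 0.109) or without wild type CCl4 replicate 2, 4 or 5 (0.0631, 0.0773 and 0.0784), with log2 fold changes of -0.76, -0.83, -0.71 and -0.72 in that order.

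Whether CCl4 acted differently in the 2 genotypes was tested directly as the difference of the CCl4 effects. No member passed (0 of 10; 1.09% of all genes passed), 2 had an unadjusted p under 0.05, DESeq2 passed 1 and limma voom 0. The difference was -1.04 ± 0.32 log2 for Igfals (edgeR adjusted p = 0.105; DESeq2 -1.02 log2, adjusted p = 0.0450). It was -1.06 ± 0.36 log2 for Ghr (edgeR adjusted p = 0.130), which passed without knockout CCl4 replicate 1 (-1.47 log2, adjusted p = 0.0184). For Igf1 it was -0.50 log2 (edgeR adjusted p = 0.317).

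The members differed widely in their spread within groups. The within-group SD of log2(CPM + 1), pooled over the 4 groups, was 2.09 for Cish, and only 6 of 13721 tested genes (0.0437%) had a larger one. It was 1.25 for Socs2 and 1.12 for Bcl6, exceeded by 0.940% and 1.63% of genes, and 0.937 for Cux2. Igf1 and Jak2 were at the other end with 0.235 and 0.226, below the median of all genes of 0.347. Ghr, Igfals, Stat5b and Prlr had 0.386, 0.328, 0.462 and 0.761. No source used here states the time of day of collection.

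**Figure D3:**
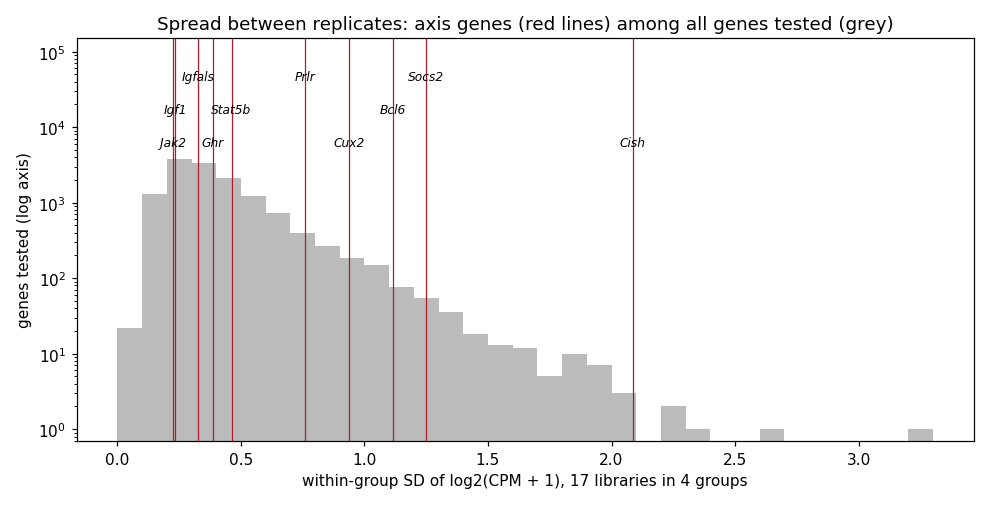
Histogram of the within-group SD of log2(CPM + 1) over all 13721 tested genes (grey, number of genes on a log axis), with a red line at each axis gene. Cish stands at 2.09 in the far tail, and Igf1 and Jak2 at 0.235 and 0.226 lie among the bulk of genes.

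Among the 4 members of largest spread, chosen after their values were seen, the relation of each of the 6 pairs was computed over the 17 libraries. Socs2 and Cish were high in the same libraries, with Pearson r = 0.783 (permutation p = 0.00017, adjusted 0.00102) and Spearman rho = 0.775 (permutation p = 0.00041, adjusted 0.00246). With the 2 libraries farthest from the median of Socs2 left out r was 0.662, and with each group's mean removed it was 0.816 (permutation p = 0.00094, adjusted 0.00564). Cish and Bcl6 ran in opposite directions, with r = -0.534 (permutation p = 0.0296, adjusted 0.0863) and rho = -0.510 (permutation p = 0.0393, adjusted 0.118), which missed the threshold after adjustment. Without the 2 farthest libraries r was -0.512, and with group means removed it was -0.503 (permutation p = 0.0471, adjusted 0.141). The other 4 pairs also missed the threshold after adjustment.

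**Figure D4:**
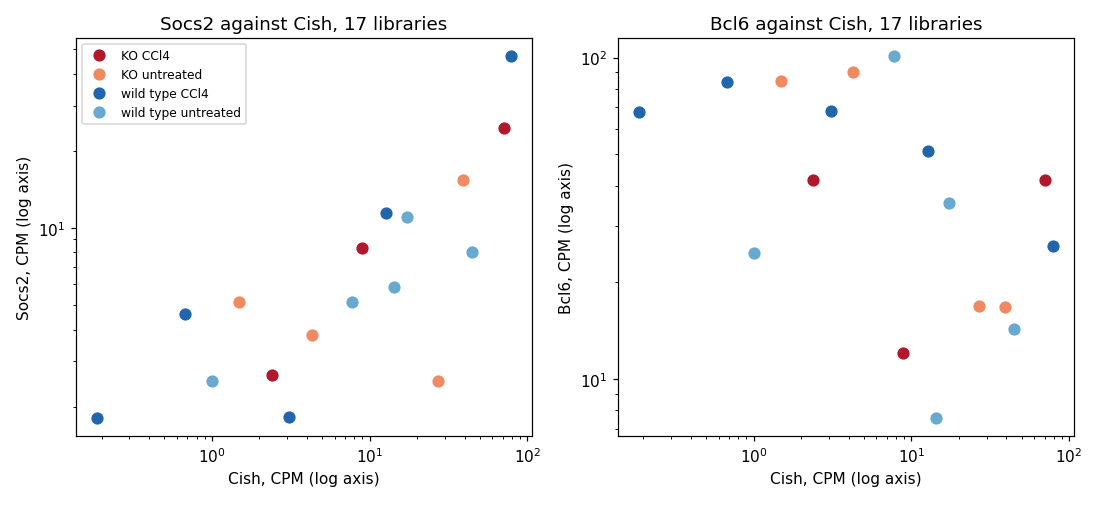
Socs2 (left) and Bcl6 (right) against Cish, CPM of TMM-scaled libraries on log axes, with each of the 17 libraries as a point coloured by group. Socs2 and Cish lie along a rising band (r = 0.783 on log2(CPM + 1)) that holds libraries of all 4 groups.

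The genes whose levels ran most closely with the 3 members that fell in knockout were also listed. Over the 17 libraries and the 7304 genes with a mean of at least 10 CPM, the genes most correlated with Ghr were Cat (catalase, Pearson r = 0.956), Cyp2j5 (0.941) and Aldh6a1 (0.939). For Igf1 the first gene was Igfals (0.882), followed by Hist2h2aa2 (0.873) and Idh3g (0.870), and for Igfals they were 1300017J02Rik (0.915), Chchd10 (0.913) and Nudt7 (0.912). These are descriptions over libraries that share groups and depth, with no test.

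The gene lists from here on were chosen with earlier results of these data known, so their counts describe the lists and do not test them. Of 25 tested male-biased genes that depend on pulsed growth hormone, 23 fell and 0 rose after CCl4 in knockout. There 6.96% of all genes were called lower. The median of the 25 was -3.07 log2 against 0.01 over all genes. In wild type 7 fell, 0 rose and 18 did not pass, where 0.853% of all genes were called in either direction, and the median was -1.42 log2 against -0.01. DESeq2 called 13 and limma voom 7 of the 25 in wild type. Hsd3b5, a steroid dehydrogenase of male liver, averaged 0.699 ± 0.851 CPM in knockout CCl4 (n = 3) and 149 ± 51.8 CPM in knockout untreated libraries (n = 4), -7.79 ± 0.77 log2 (edgeR adjusted p = 2.16e-05). In wild type it averaged 18.7 ± 10.6 CPM after CCl4 and 206 ± 32.2 CPM untreated (n = 5 each), -3.46 ± 0.47 log2 (edgeR adjusted p = 0.00215). Mup3, a pheromone-binding urinary protein, fell by 3.71 ± 0.53 log2 and Cyp7b1, an oxysterol hydroxylase, by 3.89 ± 0.62 log2 in knockout. After CCl4, 9 of the 25 were lower in knockout than in wild type, where 4.21% of all genes were called lower. Among them, Ugt2b38 (-8.04 log2) was also lower in knockout without CCl4 (-7.30 log2). The difference of CCl4 effects passed for Hsd3b5 (-4.33 ± 0.79 log2, edgeR adjusted p = 0.0316) and Slc22a28 (-3.86 ± 0.90 log2, adjusted p = 0.0492). The call was lost with any 1 of 11 libraries left out for Hsd3b5 (-6.19 to -3.70 log2 over all 17) and any 1 of 15 for Slc22a28 (-7.52 to -3.14 log2), while DESeq2 called 6 of the 25 and limma voom 0. Without knockout CCl4 replicate 3 the falls numbered 17 in knockout, 9 in wild type and 5 between genotypes, and the difference passed for 0. Without knockout CCl4 replicate 1 they numbered 13 in wild type and 14 between genotypes, and the difference passed as lower for 11. With other libraries left out it passed for 0 to 2.

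**Figure D5:**
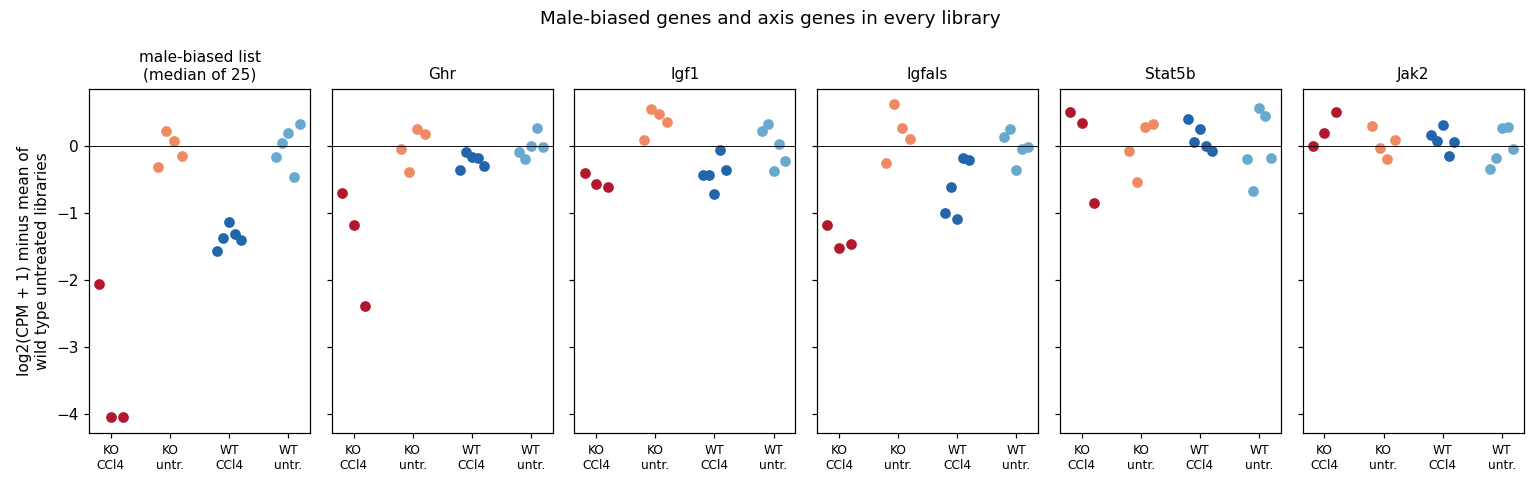
Median of the 25 male-biased genes (left) and the levels of 5 axis genes, each as log2(CPM + 1) minus its mean in wild type untreated libraries, for every library in the 4 groups. The male-biased median is at -4.05 to -2.06 in knockout CCl4 and -1.56 to -1.12 in wild type CCl4 libraries, and the groups of Jak2 and of Stat5b overlap.

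Set library by library, the male-biased median was -2.06, -4.05 and -4.04 log2 in knockout CCl4 replicates 1, 2 and 3 and -0.31 to 0.23 in knockout untreated libraries. It was -1.56 to -1.12 in wild type CCl4 and -0.47 to 0.33 in wild type untreated libraries, so in both genotypes the CCl4 libraries were all lower. In wild type the CCl4 and untreated libraries overlapped for Ghr, Igf1, Igfals, Jak2 and Stat5b. In knockout Ghr, Igf1 and Igfals were lower in all CCl4 libraries, and Jak2 and Stat5b overlapped. These are single genes, while the male-biased value is a median of 25 genes chosen with earlier results known. Whether the axis genes account for the male-biased fall was not tested. In untreated hepatocytes 1 male-biased gene was higher in knockout (Cspg5) and 1 lower (Ugt2b38, 0.193 ± 0.148 CPM in 4 knockout and 32.5 ± 14.9 CPM in 5 wild type libraries), where 0.933% of all genes were called. DESeq2 called 5 and limma voom 4 of the 25 there, and 8 had an unadjusted p under 0.05 in edgeR.

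Some female-biased genes rose. Of 31 listed, 23 had enough counts to be tested. A gene near 0 in untreated libraries could enter through the CCl4 libraries where it was high, so counts and medians may lean upward. Of the 23, 7 rose and 0 fell after CCl4 in knockout (median 1.70 log2), where 19.0% of all genes were called in either direction. In wild type 3 rose and 0 fell (median 1.10 log2), where 0.853% of all genes were called. Between genotypes after CCl4, 4 were higher in knockout and 2 lower, Rdh16 and Fmo1 (median -0.14 log2), where 11.8% of all genes were called. Fmo1 did not pass there without knockout CCl4 replicate 3. Nor did Atp6v0d2, 1 of the 4 higher, which went from 2.68 to 0.88 log2 (edgeR adjusted p = 0.292). Prom1, another of the 4, did not pass without knockout CCl4 replicate 2 (edgeR adjusted p = 0.109). Cyp2a4, a steroid hydroxylase, averaged 66.2 ± 37.3 CPM in knockout CCl4 (n = 3) and 0.0752 ± 0.123 CPM in knockout untreated libraries (n = 4), and 5.00 ± 2.28 CPM in wild type CCl4 and 0.513 ± 0.606 CPM in wild type untreated libraries (n = 5 each). Its difference of CCl4 effects was 6.63 ± 1.20 log2 (edgeR adjusted p = 0.0316), and it did not pass with any 1 of 10 libraries left out, knockout CCl4 replicate 3 among them (6.56 log2). With each of the 17 left out in turn it was 5.61 to 8.08 log2. The wild type count of 3 was 1 without wild type CCl4 replicate 1, 2, 3 or 5 and 0 without wild type untreated replicate 2 or 3. Cux2, the repressor tied to the female pattern, did not pass in these comparisons.

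Most of the receptor's other signalling genes did not pass. Of 27 other tested genes of growth hormone and cytokine receptor signalling, 3 rose and 1 fell after CCl4 in knockout, where 19.0% of all genes were called, so the 4 calls do not exceed the background share. The list's median was 0.23 log2 against 0.01 over all genes. In wild type 0 passed in edgeR, DESeq2 or limma voom, with 6 at an unadjusted p under 0.05. Lifr, the leukaemia inhibitory factor receptor, was the 1 that fell: it averaged 113 ± 38.8 CPM in knockout CCl4 and 437 ± 65.0 CPM in knockout untreated libraries, -1.95 ± 0.26 log2 (edgeR adjusted p = 0.000272). Stat5a rose by 0.81 ± 0.25 log2 (edgeR adjusted p = 0.0329), Ptpn1, a phosphatase of JAK2, by 1.23 ± 0.34 log2, and Cbl, a ubiquitin ligase, by 1.78 ± 0.45 log2. Ptpn1 did not pass without knockout CCl4 replicate 3 (0.71 log2). Stat5a did not pass without replicate 1 or 2 of knockout CCl4 or replicate 1, 2 or 4 of knockout untreated. It overlaps Stat3, which lies on the other strand, so reads of this pair may also be mixed.

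Among 11 tested IGF carriers and receptors, 2 rose and 1 fell after CCl4 in knockout, against 19.0% of all genes called. In wild type 0 passed in edgeR (3 at an unadjusted p under 0.05), 1 in DESeq2 and 0 in limma voom. Igfbp4, an IGF-binding protein, averaged 849 ± 208 CPM in knockout CCl4 and 1604 ± 160 CPM in knockout untreated libraries, -0.92 ± 0.20 log2 (edgeR adjusted p = 0.00373). Igfbp7, a vessel-wall protein with weak IGF binding, rose by 4.49 ± 0.85 log2 and Igf2r, the clearance receptor of IGF2, by 0.86 ± 0.27 log2. Igfbp7 was at 2.87 log2 without knockout CCl4 replicate 3. Igf2r did not pass without replicate 2 of knockout CCl4 or replicate 2, 3 or 4 of knockout untreated.

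Of 16 hepatocyte factors that work near STAT5, Cebpa fell in knockout after CCl4 (196 ± 50.3 CPM in knockout CCl4 and 437 ± 151 CPM in knockout untreated libraries, -1.16 ± 0.28 log2, edgeR adjusted p = 0.00874), Trim24 rose by 0.92 ± 0.31 log2, and 14 did not pass. These 2 calls do not exceed the background share of 19.0%. Trim24 missed the threshold with any 1 of 12 libraries left out. In wild type 0 of the 16 passed in edgeR (1 at an unadjusted p under 0.05), 1 in DESeq2 and 0 in limma voom.

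Markers of other liver cells moved in the same comparisons as the axis genes. In knockout after CCl4, 10 of 10 macrophage, 9 of 10 endothelial and 7 of 8 tested stellate markers rose, where 19.0% of all genes were called. DESeq2 called 10, 8 and 7 of these lists, and limma voom 2, 8 and 5. With replicate 3 of knockout CCl4 left out, edgeR called 7, 6 and 5. The filter kept genes with enough counts in as few as 3 libraries, the size of the knockout CCl4 group. A marker could thus enter the test only through the group where it was high. Counts of markers higher in knockout CCl4, here and between genotypes, may therefore lean upward. The summed macrophage markers were 120 to 3601 CPM in knockout CCl4 and 28.2 to 66.2 CPM in knockout untreated libraries. Endothelial sums were 93.0 to 885 CPM in knockout CCl4 and 19.6 to 27.1 CPM in knockout untreated libraries. Stellate sums were 80.7 to 199 CPM in knockout CCl4 and 6.98 to 10.6 CPM in knockout untreated libraries, where Pdgfrb and Acta2 were at 0. Lymphocyte markers summed to 2.33 to 52.5 CPM in knockout CCl4 and at most 0.495 CPM in knockout untreated libraries.

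In knockout against wild type after CCl4, where Ghr and Igfals were lower, 10 of 10 macrophage, 3 of 10 endothelial and 0 of 8 stellate markers were higher by edgeR (4 stellate markers at an unadjusted p under 0.05). Of all genes, 11.8% were called in that comparison in either direction. DESeq2 called 10, 3 and 1 of these lists there, and limma voom 5, 1 and 0. The hepatocyte marker Cps1 was lower there, at -0.995 log2 (edgeR adjusted p = 0.0131). With replicate 3 of knockout CCl4 left out, edgeR called 0 of each list and Cps1 was at -0.70 log2 (adjusted p = 0.0645). In wild type after CCl4, where male-biased genes fell, 0.853% of all genes were called. The endothelial markers Lyve1 and Ramp2 rose by 4.30 and 4.20 log2 and the stellate marker Col3a1 by 3.79 log2. These 3 calls were lost with any 1 of 4, 8 and 6 libraries left out, and limma voom called none of them. No macrophage marker passed there in edgeR (5 at an unadjusted p under 0.05), 3 did in DESeq2 and 0 in limma voom.

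The summed hepatocyte markers were 107785 to 141552 CPM in knockout CCl4 and 95958 to 148106 CPM in knockout untreated libraries. Of the 9 markers, 3 fell in this comparison, Ass1, Cps1 and Apoa1, by 0.93, 0.78 and 0.66 log2, where 6.96% of all genes were called lower. Leaving out knockout CCl4 replicate 3, 0 of the 9 passed, at -0.72, -0.48 and -0.74 log2 for these 3 (edgeR adjusted p = 0.0728, 0.128 and 0.0559). Cps1 also missed the threshold without replicate 2 of knockout CCl4 or replicate 1, 3 or 4 of knockout untreated, and Apoa1 without replicate 2 of either group. The part of other cells in the changes of the axis genes was not tested.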

How the data were processed

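Messenger RNA was sequenced from 17 samples of sorted hepatocytes. The authors deposited 1 table of whole-number counts per gene, with 1 column per sample. The submitters' processing notes name STAR 2.4.1d and the mm10 build, with FastQC, DESeq2, edgeR and limma. How reads were counted, on which strand and with which annotation is not given in the sources used here. Totals ran from 11266420 to 24775863 counts per sample. Symbols were matched for 22914 of 23461 identifiers, and 186 of 189 list entries were in the table. Replicate columns were checked as separate libraries: the lowest chi-square per gene between a pair was 23.4.

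In R 4.3.3, edgeR 4.0.16 was run on all samples with a mean per group, TMM scaling, filterByExpr (minimum count 10, minimum total 15) and robust quasi-likelihood F tests, which kept 13721 genes. P-values were adjusted by Benjamini-Hochberg and called under 0.05. Each standard error was the size of the change divided by √F. Per-kilobase levels used GENCODE exon unions on mm10. The pipeline was tested on simulated data. Members and gene lists were chosen with earlier results of these data known. Named genes were all members, the genes most like Ghr, Igf1 and Igfals, and from each list at most the 6 called genes with the smallest adjusted p per comparison, beside Yap1 and Wwtr1 as the check of the deletion. Alternatives were RLE and upper-quartile scaling, library totals, no filter, a CPM floor of 1 in 5 or more samples, limma voom 3.58.1, DESeq2 1.42.0, only the groups compared, a replicate block, each sample left out, the 2 libraries of largest mitochondrial share left out, and mitochondrially encoded genes left out. No column was left unused.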

Additional observations from a re-analysis of the deposited data

Results flagged for a closer look

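Dixon's outlier test, run on CPM, flagged 2 of 30 member and group combinations of 4 or 5 libraries. For normally spread values chance alone gives about 1 in 20, so the count is near that share. The test was not run on log2 values, and both genes spread widely in CPM. Socs2 had 46.9 CPM in wild type CCl4 replicate 5, and the nearest library of that group had 11.4 CPM. Cish had 79.0 CPM in the same library, and the nearest had 12.7 CPM. Both values come from 1 library, and both genes are the feedback inhibitors that were correlated over all libraries.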

How the results depend on the processing

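Under 28 alternatives no change that had passed turned its direction, and 1279 of 1390 recomputed values kept direction and side of the threshold. Most of the 1390 belong to changes that had not passed, and the 16 that lost a call all belong to changes that had. For genotype after CCl4, Ghr lost its call under 5 of the 28 alternatives and Igfals under 8. For CCl4 in knockout Ghr lost it under 2, Igf1 under 1 and Igfals under 0. For CCl4 in knockout the count of called members was 3 to 3 with each library left out in turn. With library totals alone the count was 1, as Ghr (-1.03 log2, edgeR adjusted p = 0.0588) and Igf1 (-0.69, 0.0513) missed the threshold, and in the fit of only the 2 groups compared Ghr missed it (-1.26, 0.0808). For genotype after CCl4 the count of 2 became 1 with library totals (Ghr -1.03, 0.0769), and 0 with only the 2 groups compared (Ghr -1.07, 0.0829; Igfals -0.85, 0.0775) or without knockout CCl4 replicate 3 and wild type untreated replicate 5, the 2 libraries of largest mitochondrial share (Ghr -0.70, 0.0618; Igfals -0.78, 0.157), and it ran from 0 to 2 with a library left out. For the difference of CCl4 effects DESeq2 gave 1 and leaving out a library 0 to 1. For CCl4 in wild type and for genotype untreated the count was 0 throughout. With library totals the median CCl4 change over all genes was 0.38 log2 in wild type and 0.20 in knockout, and 94.8% and 83.6% of calls were then higher, against 67.5% and 63.4%. The causes were not tested.

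The labels do not say that replicate numbers pair the samples, and same-numbered samples did not deviate together (22 pairs, correlations -0.318 to 0.247). With the replicate number as a block, the count for genotype after CCl4 was 0 (Ghr -1.05, adjusted p = 0.0632; Igfals -0.68, 0.130).

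Values that had not passed changed sign as follows, in log2 with the reported value in brackets. For CCl4 in knockout, Stat5b (0.077) was -0.18 to 0.40 with a library left out. Socs2 (0.83) was -0.31 to 1.62 with a library left out. Cish (0.62) was -1.70 to 1.35 with a library left out. Cux2 (0.79) was -0.67 with the mitochondrial libraries left out and -0.67 to 1.62 with a library left out. For CCl4 in wild type, Ghr (-0.22) was 0.16 with library totals. Cish (0.17) was -1.27 with limma voom, -1.40 with the replicate block and -2.03 to 0.94 with a library left out. Stat5b (0.073) was -0.067 to 0.24 with a library left out. Socs2 (1.04) was -0.40 to 1.32 with a library left out. For genotype untreated, Stat5b (-0.028) was 0.094 with library totals, 0.0030 with limma voom and -0.17 to 0.14 with a library left out. Cux2 (-0.082) was 0.071 with library totals, 0.21 with the replicate block, 0.25 with the mitochondrial libraries left out and -0.91 to 0.40 with a library left out. Socs2 (0.037) was -0.16 with limma voom, -3e-04 with the mitochondrial libraries left out and -0.76 to 0.31 with a library left out. Cish (0.062) was -0.35 with limma voom and -0.67 to 0.82 with a library left out. Jak2 (0.037) was -0.066 to 0.12 with a library left out. Ghr (0.017) was -0.071 to 0.13 with a library left out. For genotype after CCl4, Socs2 (-0.18) was 0.10 with limma voom, 1.13 with the replicate block, 0.017 with the mitochondrial libraries left out and -1.32 to 1.26 with a library left out. Stat5b (-0.024) was 0.010 with the replicate block, 0.30 with the mitochondrial libraries left out and -0.28 to 0.30 with a library left out. Cish (0.51) was -1.81 to 2.71 with a library left out. Prlr (0.33) was -0.061 to 0.57 with a library left out. Cux2 (1.399) was -0.059 with the mitochondrial libraries left out and -0.059 to 1.84 with a library left out. For the difference of CCl4 effects, Stat5b (0.0046) was -0.012 with upper-quartile scaling, -0.10 with library totals, -0.020 with no filter, -0.13 with limma voom, -0.033 with mitochondrial genes left out and -0.25 to 0.32 with a library left out. Jak2 (0.12) was -0.10 with library totals, -0.011 with the mitochondrial libraries left out and -0.031 to 0.23 with a library left out. Prlr (-0.14) was 0.044 with limma voom, 0.11 with the mitochondrial libraries left out and -0.54 to 0.16 with a library left out. Socs2 (-0.21) was 0.26 with limma voom, 0.80 with the replicate block, 0.018 with the mitochondrial libraries left out and -1.36 to 1.22 with a library left out. Cish (0.45) was -1.88 to 2.65 with a library left out. Cux2 (1.48) was -0.31 with the mitochondrial libraries left out.

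The counts of male-biased falls ranged from 14 to 23 for CCl4 in knockout and from 5 to 14 in wild type, and the count of all genes called from 1273 to 3079 and from 49 to 651. Depth limits Cux2, with 1 to 91 reads per library, and the size of the knockout CCl4 group, with 3 libraries, limits every comparison that uses it.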

Other observations

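Of 16 tested acute-phase genes driven by STAT3, the STAT of interleukin 6, 4 rose and 0 fell in knockout hepatocytes after CCl4, where 19.0% of all tested genes were called, and 0 passed in wild type by edgeR (1 at an unadjusted p under 0.05), DESeq2 or limma voom. Lcn2, an iron-scavenging defence protein, rose by 7.06 ± 1.00 log2 (edgeR adjusted p = 0.000391), Orm2 by 3.35 ± 0.69, Serpina3n by 0.99 ± 0.23 and Hpx by 0.77 ± 0.22. Without knockout CCl4 replicate 3, 2 of the 16 were called: Lcn2 and Orm2 still passed, and Serpina3n and Hpx did not. Hpx also missed the threshold without replicate 1 or 4 of knockout untreated.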
